A study of Mus musculus with 2 samples.

Results

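The cytosolic ribosomal protein genes are the 88 columns, of 25663 genes in the deposited table, whose symbols follow the standard names of these proteins (Rps and Rpl with a number, Rplp0, Rplp1, Rplp2 and Rpsa). Of them, 36 carry names of the small subunit and 52 names of the large subunit. The annotation (GENCODE release M21, genome build GRCm38) lists 82 as protein coding and 6 as processed pseudogenes, namely Rps4l, Rps12l1, Rpl32l, Rpl6l, Rps3a2 and Rps3a3. These 6 are therefore members by name, and this annotation does not list them as protein coding. Fau, which encodes a ribosomal protein fused to a ubiquitin-like protein, has another kind of name and is given only with the translation factors. The naming rule uses no measured value.

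The series profiled RNA in single cells sorted from the small intestine epithelium of mice at E18.5, shortly before birth. The groups are 1 Tet3KO library and 1 Control library, and each library pooled the cells of 2 embryos. In Tet3KO, exon 5 of Tet3, a dioxygenase that oxidises methylated cytosine in DNA, had been removed with Cre in embryonic stem cells of (C57BL6/J x C3H/HeJ)F1 background, and the frame shift places a stop codon in exon 6. The allele passed through the germ line of chimeric males and CD1 females and was backcrossed to C57BL6/JRccHsd for at least 5 generations. The labels give C57BL6/J as the strain of both groups, call the Control wild-type and name no treatment for either. Cells were fixed in 90% methanol and read with 10x Genomics 3′ chemistry, which tags each captured transcript near its 3′ end with a unique molecular identifier (UMI).

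Each ribosome holds 1 copy of nearly every ribosomal protein, and cells keep the levels of their messages close together. Most of these messages begin with a stretch of pyrimidines, the TOP motif, through which mTOR and LARP1 tie their translation to nutrients and growth. Dividing cells make new ribosomes as they grow. In the intestinal epithelium, absorptive enterocytes carry abundant Fabp1, a fatty acid binding protein of the enterocyte cytosol. Fabp6, a bile acid binding protein, marks enterocytes of the distal small intestine. Mki67 and Top2a mark dividing cells, and Muc2, Fcgbp and Spink4 are secreted by goblet cells.

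Barcode suffixes split the 11871 cells of the table into 5933 cells (set 0) and 5938 cells (set 1), where the labels state 6000 cells used per sample. Neither suffix is tied by a label to Tet3KO or Control, so the genotypes were not compared. Mean Tet3 was 0.333 CP10K in set 0 and 0.218 CP10K in set 1. Of set 1, 818 cells had a barcode that set 0 also had, and values of set 1 leave them out, which keeps 5120 cells. CP10K is the deposited signal, in which each cell sums to 10000. Recovered depth was a median of 23657 UMIs per cell in set 0 and 22374.5 in set 1. Cells of 1 sample are not replicates, so no test was run and no p-value is given. A member is called lower or higher where its mean differed by at least 1.5-fold and reached 0.2 CP10K in 1 or both groups of cells. Log2 ratios have 0.01 CP10K added to both means. The epithelial label held, with Epcam at a mean of 13.1 CP10K and lists of immune, mesenchymal and endothelial markers each summing to at most 0.687 CP10K in the compared groups of pooled cells. Split by set, the highest of these sums was 1.52 CP10K, for the 6 mesenchymal markers in cells of set 1 with Mki67 or Top2a.

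Ribosomal protein transcripts made up less of the signal as Fabp1 increased. The 88 genes together took a mean of 19.3% of the signal in the 4093 cells below 40 CP10K of Fabp1, 15.4% in the 1136 cells between 40 and 100, and 10.1% in the 6642 cells above 100. The SD over cells was 6.34, 5.13 and 4.01 percentage points in that order. Set 0 had 18.9%, 14.6% and 9.31% in the same order, and set 1 had 20.002%, 16.1% and 11.1%. Both sets thus ran the same way, and the middle 90% of cells overlapped, at 4.57% to 17.4% above 100 CP10K of Fabp1 and 8.81% to 28.8% below 40. Of summed UMIs, the share was 10.37% above 100 (exact Poisson 95% interval 10.37 to 10.38, counting error only) and 19.37% below 40 (19.36 to 19.38).

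The lower share went with fewer ribosomal protein UMIs and with more UMIs of other genes. The median cell held 2274 ribosomal protein UMIs above 100 CP10K of Fabp1 and 3862 below 40, and it held 21895 other UMIs above 100 and 15668 below 40. Total depth was a median of 24223 UMIs above 100 and 19532 below 40, and the median mitochondrial share was 7.55% and 5.60%. The 12 proliferation markers summed to 1.52 CP10K above 100 and 8.85 CP10K below 40, and the 10 enterocyte markers, Fabp1 among them, to 917 and 162 CP10K. The part of depth, mitochondrial signal and cell cycle in the difference was not tested. Small-subunit genes stood to large-subunit genes at 0.771 above 100 and 0.777 below 40, so both subunits had nearly the same balance in these cells.

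**Figure D1:**
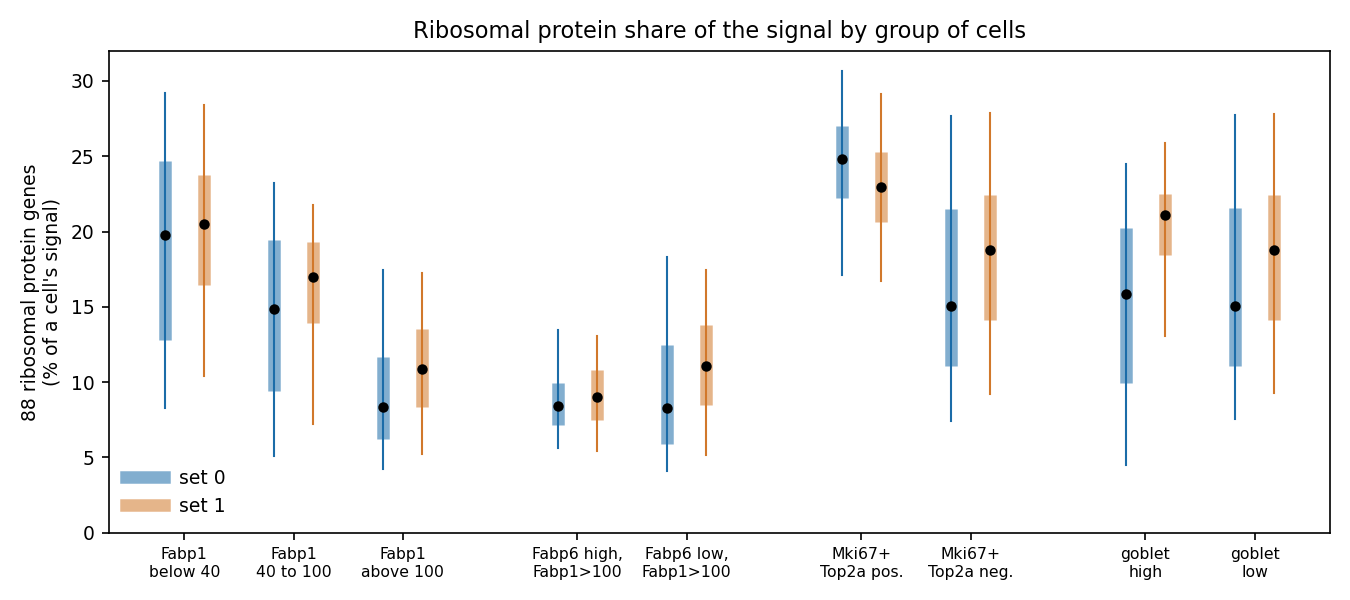
Share of each cell's signal taken by the 88 genes (y axis, percent), by group of cells and set. Dots are medians over cells, thick bars the middle 50% and thin lines the middle 90%. The medians above 100 CP10K of Fabp1 are 8.35% in set 0 and 10.9% in set 1, against 19.8% and 20.5% below 40 CP10K.

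Of the 88 members, 82 reached the minimum level in the comparison of cells above 100 CP10K of Fabp1 (Fabp1-high) with cells below 40 (Fabp1-low). Of these, 81 had a lower mean in Fabp1-high cells, as did 3500 of all 5663 measured genes. By 1.5-fold or more, 76 members were lower, where 24.4% of all measured genes were. None was higher by 1.5-fold, where 10.8% of all measured genes were. The members' median log2 ratio was -0.96, against -0.17 for all measured genes, with -1.06 in set 0 and -0.88 in set 1. The 25th and 75th percentiles of the members were -1.13 and -0.80. The order of the members was nearly the same in both sets (Spearman 0.96 across 82 genes, which share cells and libraries within a set). By step, 81 members were lower between 40 and 100 CP10K of Fabp1 than below 40 (median log2 -0.35), and 81 were lower above 100 than between 40 and 100 (median -0.62).

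The small-subunit genes had a median log2 ratio of -0.93 over 34 members, and the large-subunit genes -0.98 over 48. Rps6, the substrate of S6 kinase in the mTOR pathway, had the most negative ratio. It averaged 3.79 CP10K in Fabp1-high and 12.9 CP10K in Fabp1-low cells of set 0, and 5.21 and 14.5 CP10K in those of set 1. Its log2 ratio was -1.77 in set 0 and -1.47 in set 1. Rpl12, at the base of the stalk that binds translation factors, followed with 4.74 CP10K in Fabp1-high and 13.3 CP10K in Fabp1-low cells (log2 -1.49; -1.66 in set 0 and -1.36 in set 1). Rpl3, which lies near the peptidyl transferase centre, was at -1.39 and Rpl14 of the large subunit also at -1.39. Rps2, near the mRNA entry channel of the small subunit, was at -1.33 with 21.3 CP10K in Fabp1-high and 53.7 CP10K in Fabp1-low cells. Among these 5 the ratio was more negative in set 0 than in set 1 each time.

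The stalk proteins recruit the GTPases of translation to the large subunit. Rplp0, the anchor of the stalk, averaged 20.5 CP10K in Fabp1-high and 43.2 CP10K in Fabp1-low cells (log2 -1.08). Rplp1 was at -0.97 and Rplp2 at -1.02, close to the members' median. Rpsa, a small-subunit protein also described as a laminin receptor, averaged 16.2 CP10K in Fabp1-high and 39.1 CP10K in Fabp1-low cells (log2 -1.27). Rpl5 and Rpl11, which bind 5S rRNA and can hold Mdm2 away from p53, were at -1.21 and -1.13. Rpl38, which in mouse embryos is needed for translation of Hox messages, was at -0.76, and Rps19, a gene mutated in human Diamond-Blackfan anaemia, at -1.12.

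**Figure D2:**
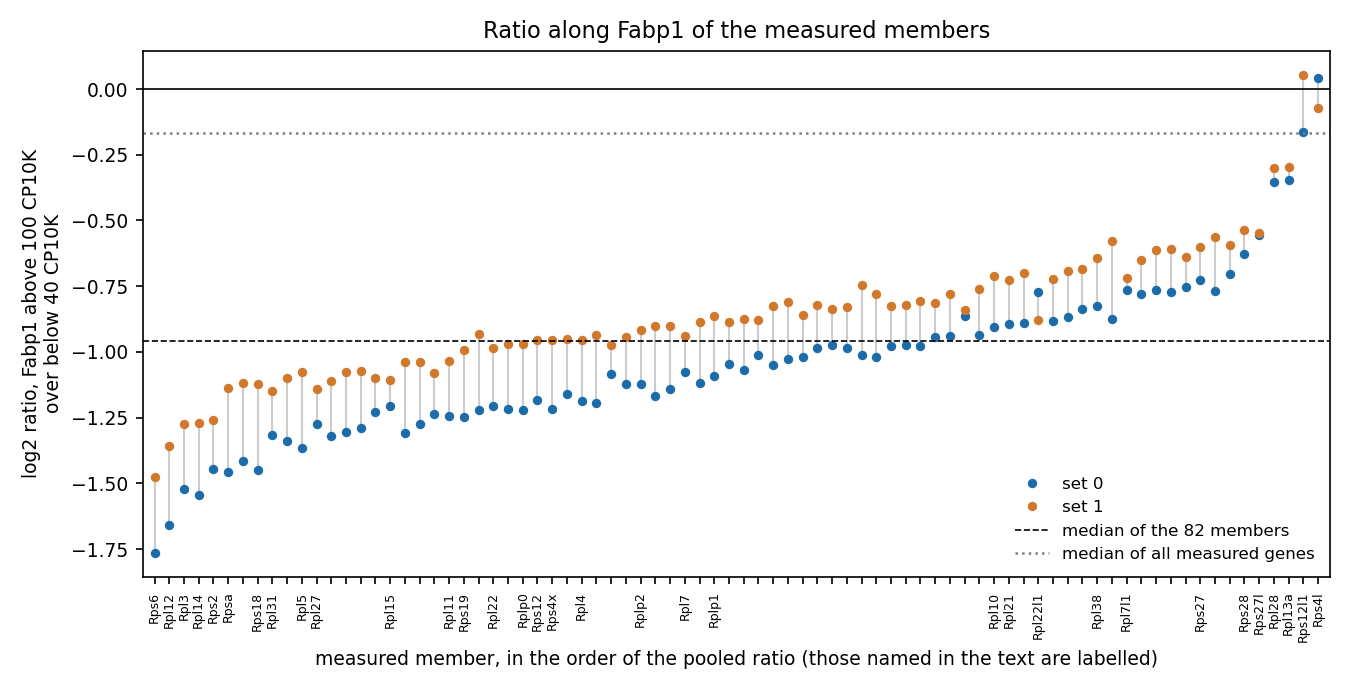
Log2 ratio of mean CP10K, Fabp1 above 100 over below 40 (y axis), for 80 of the 82 measured members, in the order of the pooled ratio (x axis, with the members the text names labelled). Blue dots are set 0 and orange dots set 1. Most members lie around the dashed line at the median of all 82, -0.96, and Rpl28 and Rpl13a lie well above it in both sets.

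Rpl28 and Rpl13a were among the protein-coding members with ratios nearest 0. Rpl28 averaged 32.4 CP10K in Fabp1-high and 40.7 CP10K in Fabp1-low cells (log2 -0.33; -0.35 in set 0 and -0.30 in set 1). Rpl13a, which in human cells also belongs to a complex that blocks translation of inflammatory messages, averaged 20.7 CP10K in Fabp1-high and 25.9 CP10K in Fabp1-low cells (log2 -0.32; -0.35 and -0.30). A member was taken to leave the common trend where its pooled ratio was at least 1 away from the members' median and at least 0.5 away on the same side in each set. Rpl28 and Rpl13a did not reach that distance, nor 1.5-fold. Rpl13a (chr7:45125558-45128761, minus strand, GRCm38) overlaps Gm45713 on the same strand over 2840 bases, and Rpl28 (chr7:4792874-4795066) overlaps Ube2s on the opposite strand over 521 bases. Gm45713 had a mean of 1.36 CP10K in Fabp1-high and 1.34 CP10K in Fabp1-low cells, and Ube2s 1.81 and 3.51 CP10K. Gm45713 is the gene that shares most sequence near the transcript end with Rpl13a. The levels of Gm45713 and Rpl13a thus depend on how reads were divided between them, and do not show how much the overlap matters. The part of either overlap in the ratios of Rpl13a and Rpl28 was not tested.

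Sequences around the annotated start (RefSeq, GRCm38.p6) were matched for 63 members in 75 windows. The starts of 3 of the 5 members with the most negative ratios along Fabp1 and of Rpl28 and Rpl13a are shown, to set low ratios beside ratios nearer 0. Each runs 5′ to 3′ over 30 bases, and capitals mark the 5 bases from the annotated start. Where transcripts begin in these cells was not measured.
Rps6: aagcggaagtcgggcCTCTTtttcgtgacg
Rpl12: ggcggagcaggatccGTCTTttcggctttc
Rpl14: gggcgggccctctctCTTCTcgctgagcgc
Rpl28: ccgcctctcgtgtctCTCTTtccgtctccg
Rpl13a: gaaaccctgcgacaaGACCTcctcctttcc
They lie at chr4:86857353-86857382 (minus strand) for Rps6, chr2:32961697-32961726 (plus) for Rpl12 and chr9:120571502-120571531 (plus) for Rpl14. Those of Rpl28 and Rpl13a are at chr7:4792950-4792979 (plus) and chr7:45128731-45128760 (minus). Rps6, at -1.61, and Rpl28, at -0.33, have the same 5 bases from the annotated start.

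The pseudogene members Rps4l and Rps12l1 were also flat along Fabp1. Rps4l, annotated as transcribed, averaged 3.08 CP10K in Fabp1-high and 3.13 CP10K in Fabp1-low cells (log2 -0.02), and its partner Rps4x, the X-linked gene, 14.7 and 30.8 CP10K (log2 -1.07). Rps12l1 averaged 1.79 and 1.87 CP10K (log2 -0.06), and Rps12 12.4 and 26.0 CP10K (log2 -1.07). Every 31-base word in the last 500 bases of the Rps12l1 transcript also occurs in Rps12, so the values of Rps12l1 depend on how reads were divided between them. Both changed sign between the sets, at 0.04 in set 0 and -0.07 in set 1 for Rps4l, and at -0.16 and 0.05 for Rps12l1.

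Paralogs of standard proteins had negative ratios as well. Rps27l averaged 3.02 CP10K in Fabp1-high and 4.39 CP10K in Fabp1-low cells (log2 -0.54), and Rps27 2.62 and 4.19 CP10K (log2 -0.68). Rpl22l1 was at -0.80, with Rpl22 at -1.08, and Rpl7l1 at -0.72, with Rpl7 at -0.99. Rpl22l1 was 1 of the members whose ratio was more negative in set 1 (-0.88) than in set 0 (-0.77). Rpl3l, known from striated muscle, had 4 UMIs in all 11871 cells, and Rpl39l, known from male germ cells, had 8. Rps3a2, Rps3a3, Rpl32l and Rpl6l had 124, 834, 2265 and 2867 UMIs, and these 6 members did not reach the minimum level.

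Along Fabp1 in finer bins, the share differed with Fabp6 in set 0. Among cells of set 0 with Fabp1 between 1 and 5 CP10K, the median share was 13.8% in 252 cells with at least 20 CP10K of Fabp6 and 24.9% in 592 cells with less than 5. Between 40 and 70 CP10K of Fabp1 it was 9.72% in 123 cells and 19.7% in 118 cells. Above 300 CP10K the shares met, at 7.31% in 43 cells with high Fabp6 and 7.54% in 1430 cells with low Fabp6. Set 1 had 6 cells with at least 20 CP10K of Fabp6 below 40 CP10K of Fabp1, too few to compare. With low Fabp6 its median share was 21.6% in the bin from 1 to 5 CP10K of Fabp1 and 9.84% above 300.

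**Figure D3:**
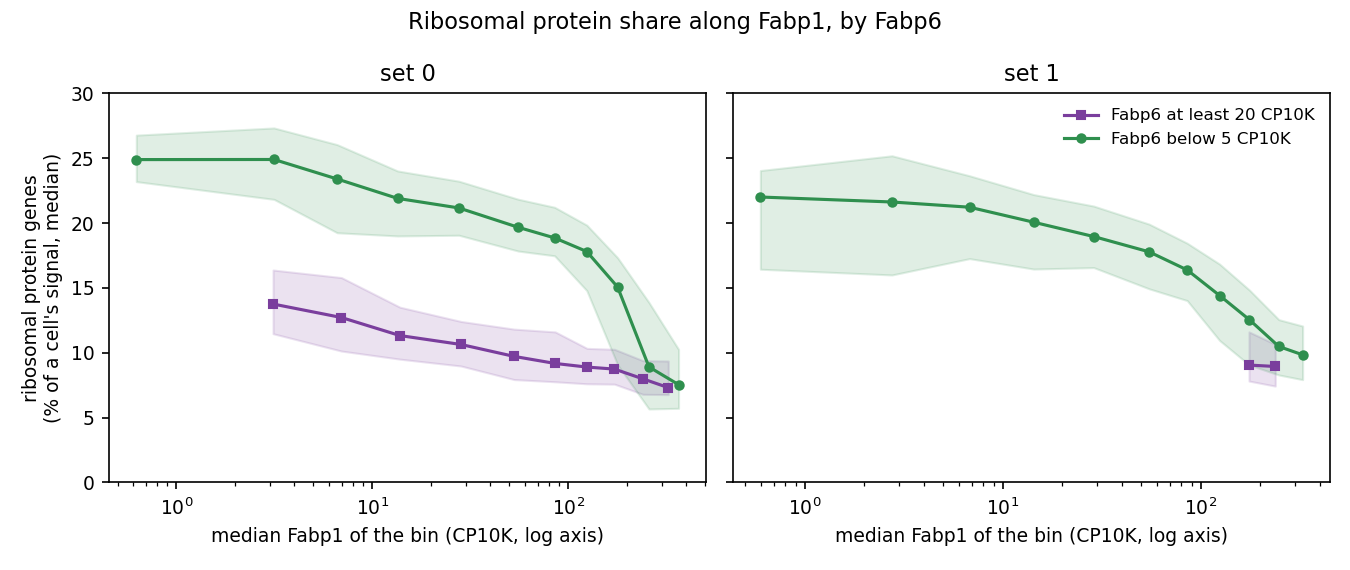
Median share of signal taken by the 88 genes (y axis, percent) against the median Fabp1 of each bin (x axis, CP10K, log axis), in set 0 (left) and set 1 (right). Squares are cells with at least 20 CP10K of Fabp6, circles cells with less than 5, and bands the middle 50% of cells. In set 0 the squares start at 13.8% and the circles at 24.9%, and they meet above 300 CP10K of Fabp1. Bins of fewer than 20 cells are not drawn.

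Over all cells above 100 CP10K of Fabp1, the comparison by Fabp6 gave a small difference, between groups not matched on Fabp1. Median Fabp1 was 192 CP10K with high and 324 CP10K with low Fabp6 in set 0, and 217 and 228 CP10K in set 1. In set 0 the median share between 100 and 150 CP10K of Fabp1 was 8.90% with high and 17.8% with low Fabp6. Between 150 and 200 CP10K it was 8.74% and 15.1% in set 0, and 9.05% and 12.6% in set 1. Between 200 and 300 it was 7.99% and 8.91% in set 0, and 8.94% and 10.5% in set 1. Over the whole range above 100 CP10K of Fabp1, the mean share was 8.75% (SD over cells 2.39) in 901 cells with at least 20 CP10K of Fabp6. It was 10.4% (SD 4.23) in 5209 cells with less than 5. Set 0 had 8.77% in 664 and 9.49% in 2409 cells, and set 1 had 9.20% in 103 and 11.2% in 2493 cells. Of 83 measured members, 75 had a lower mean with high Fabp6, as did 2340 of all 5148 measured genes. The members' median log2 ratio was -0.28, against 0.04 for all measured genes. The median was nearer 0 in set 0, at -0.15, than in set 1, at -0.30. Only 2 were lower by 1.5-fold, Rps6 (-0.66) and Rpl15 (-0.62), where 5.15% of all measured genes were, and 1 was higher, the pseudogene Rpl6l (0.63), where 7.67% were. That share of members is below the background, and in set 0 alone no member passed 1.5-fold, where 4.05% of all measured genes were lower and 7.91% higher. Rpl28 was at 0.34 (0.37 in set 0 and 0.26 in set 1). Rps28 was at 0.16 in pooled cells and nearer 0 in each set, at 0.08 in set 0 and 0.04 in set 1.

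The same comparison below 40 CP10K of Fabp1, added after these values had been seen, was larger and rests on set 0. There, 663 cells with high Fabp6 had a mean share of 12.9% and 1210 cells with low Fabp6 had 22.7%. The median log2 ratio of 82 members was -0.84 in set 0, with 66 lower by 1.5-fold where 23.8% of all measured genes were, and 0 higher where 24.5% were. Rps6 averaged 6.41 CP10K with high and 16.9 CP10K with low Fabp6 in set 0 (log2 -1.40). Rplp0 averaged 21.7 and 48.0 CP10K (log2 -1.14). Rpl28 had 40.6 and 45.1 CP10K (log2 -0.15), and Rps4l 3.52 and 2.51 CP10K (log2 0.49). So Rpl28 was again among the protein-coding members with the smallest differences. The 10 enterocyte markers summed to 302 CP10K with high and 85.9 CP10K with low Fabp6 in set 0, and the 12 proliferation markers to 1.61 and 12.6 CP10K. Their part in the result was not tested. The small-subunit sum stood to the large-subunit sum at 0.743 with high and 0.782 with low Fabp6 in set 0, and at 0.733 and 0.775 above 100 CP10K of Fabp1.

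Cells with Mki67 or Top2a had a larger share of ribosomal protein signal. Among cells below 40 CP10K of Fabp1 with few goblet markers, 990 cells with at least 1 CP10K of Mki67 and Top2a together had a mean share of 23.5% (SD over cells 4.33), and 2527 cells with none of either had 17.2% (SD 6.25). Cells in between had 21.8%. Set 0 had 24.3% in 486 and 16.4% in 1310 cells, and set 1 had 23.0% in 444 and 18.48% in 1077 cells. The median cell held 5280 ribosomal protein UMIs with the markers and 3348 without, and 16585 and 15562 other UMIs.

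Markers of other cell types differed between these cells too. The 10 enterocyte markers summed to 60.2 CP10K in Mki67+Top2a-positive and 214 CP10K in negative cells, at 52.7 and 223 CP10K in set 0 and 63.9 and 201 CP10K in set 1. The 6 stem cell markers summed to 1.80 and 0.303 CP10K, and the 9 enteroendocrine markers to 0.2003 and 2.76 CP10K. The 6 mesenchymal markers, led by Col3a1, summed to 1.52 CP10K in positive and 0.278 CP10K in negative cells of set 1, and to 0.00606 and 0.0114 CP10K in those of set 0. Their part in the result was not tested.

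Of 82 measured members, 80 had a higher mean in Mki67+Top2a-positive cells in both sets, as did 2755 of all 5939 measured genes. The members' median log2 ratio was 0.47, against 0.01 for all measured genes. Of the 82 members, 12 were higher by 1.5-fold or more where 20.2% of all measured genes were, and 1 was lower where 22.2% were. In pooled cells the members that passed thus made up a smaller share than the background, and the sets differed in this. The median was 0.59 in set 0, where 42 members were higher by 1.5-fold and 22.8% of all measured genes were. In set 1 it was 0.31, where 0 members and 17.6% of all measured genes were. The cells without Mki67 and Top2a had a median Fabp6 of 13.7 CP10K in set 0 and 0 in set 1. With only cells below 5 CP10K of Fabp6 on both sides, the shares were 23.8% in 942 and 19.3% in 1553 cells, the median log2 ratio was 0.32 and no member was higher by 1.5-fold, where 15.6% of all measured genes were. Set 0 then had 24.7% in 457 and 20.9% in 529 cells, and set 1 had 22.97% in 436 and 18.49% in 994 cells. The direction thus held without Fabp6-high cells, and the pooled median ratio was smaller. Set 1 kept nearly the shares it had with all these cells, while the shares of set 0 lay closer together.

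Rpl12 had the highest ratio, with 0.79 (0.99 in set 0 and 0.57 in set 1). Rps6 averaged 18.8 CP10K in positive and 10.0 CP10K in negative cells of set 0, and 18.2 and 12.5 CP10K in those of set 1 (log2 0.73). Rpl31 was at 0.72, Rpl27 at 0.71 and Rpl15 at 0.69. Among the lowest, Rpl28 was at 0.11, Rps28 at 0.16 and Rpl13a at 0.18. Rplp0 was at 0.58, Rplp1 at 0.43, Rplp2 at 0.47 and Rpsa at 0.62. The comparison shares its Mki67+Top2a-negative and positive cells with the Fabp1-low group above, so the ratios are not a separate sample of the same order.

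The 2 members with a lower mean in Mki67+Top2a-positive cells were annotated as pseudogenes. Rps12l1 averaged 1.53 CP10K in positive and 2.37 CP10K in negative cells of set 0. In those of set 1 it averaged 0.617 and 1.74 CP10K (log2 -0.84 in pooled cells). It left the common trend by the rule used, with values that depend on how reads were divided with Rps12. Rps4l averaged 2.47 and 3.48 CP10K (log2 -0.49), lower in both sets and short of 1.5-fold.

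Cells with goblet markers had a mean share close to that of other cells. Below 40 CP10K of Fabp1 and without Mki67 or Top2a, 58 cells with at least 20 CP10K of Muc2, Fcgbp and Spink4 together had a mean share of 16.9% (SD over cells 6.46), and 2490 cells with less than 5 CP10K had 17.2% (SD 6.23). The sets pointed opposite ways, at 15.1% in 34 and 16.4% in 1288 cells of set 0, and at 20.6% in 19 and 18.49% in 1069 cells of set 1. The median depth was 11974 UMIs with and 18922 without the markers, and Paneth markers summed to 24.2 CP10K in the goblet-marker cells. Their part in these values was not tested. Of 83 measured members, 0 were lower by 1.5-fold where 17.6% of all measured genes were, and 1 was higher where 22% were, Rpl6l, with 14 UMIs in the 58 cells. The sets had opposite signs for 50 of 83 members, and for 1533 of all 6238 measured genes. Rpl22l1 (-0.40), Rps27l (-0.50), Rpl15 (-0.45) and Rps4l (-0.56) were negative in both sets, and Rpsa (0.27) and Rpl4 (0.27) positive in both.

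Within each Fabp1 group the members varied together from cell to cell. With every cell thinned to 8000 UMIs, which left out 87 shallower cells, the summed family had a coefficient of variation of 32.2% below 40 CP10K of Fabp1, 33.5% between 40 and 100 and 39.8% above 100. Poisson counts of the same means would give 2.54%, 2.85% and 3.52%. Over the 81 members with a mean of at least 1 UMI, the median Spearman correlation with the sum of the other members was 0.74, 0.71 and 0.73 in the same order, over 4028, 1130 and 6626 cells. These cells share libraries, and a low count lowers such a correlation. Rps18 reached 0.89 above 100 CP10K of Fabp1. Rpl28 was at 0.26 and Rpl13a at 0.42 there, although they had 25.9 and 16.6 UMIs per 8000.

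Rps12l1 ran against the other members, with a correlation of -0.22 in both Fabp1-high and Fabp1-low cells, and was found in 31.97% of Fabp1-high and 17.9% of Fabp1-low cells at that depth. Its variance was 4.76 and 8.78 times its mean. Its values depend on how reads were divided with Rps12, and 68.9% of its nonzero values were whole UMIs. The part of that division in its correlation, detection and variance was not tested. Rps4l was at -0.03 and -0.19, with a UMI in 85.0% and 82.7% of cells.

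**Figure D4:**
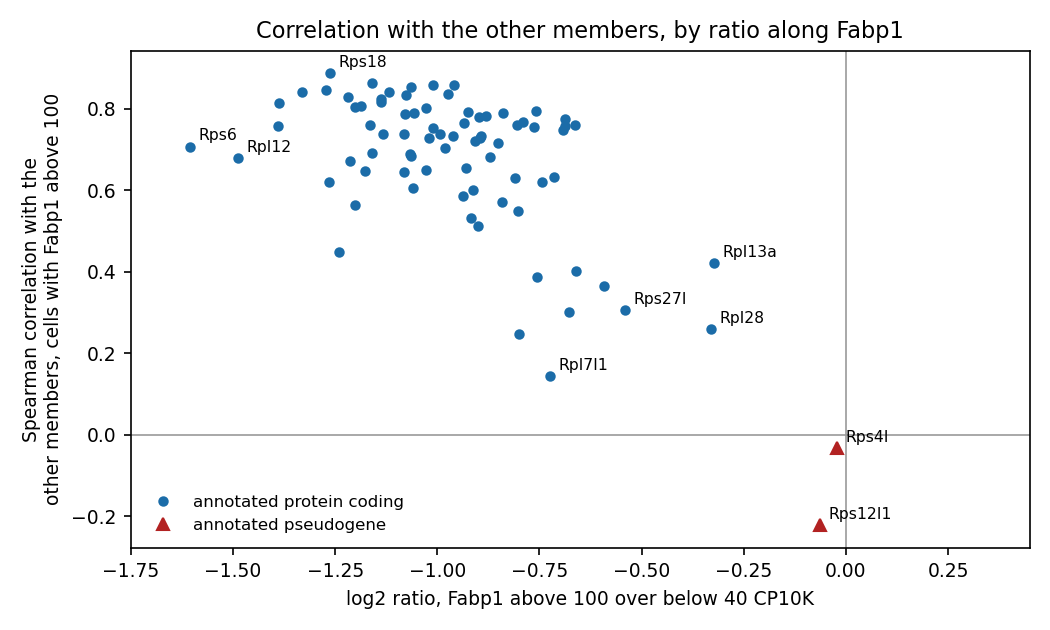
Spearman correlation of 80 of the 82 measured members with the sum of the others over cells above 100 CP10K of Fabp1 (y axis) against their log2 ratio, Fabp1 above 100 over below 40 (x axis). Blue dots are protein-coding members and red triangles pseudogenes. Rps18 is at 0.89, while Rpl28 is at 0.26 and Rps12l1 at -0.22.

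The ribosome biogenesis list had a more negative median ratio along Fabp1 than the ribosomal protein genes, as a description of that list. All 15 measured genes of the ribosome biogenesis list were lower by 1.5-fold in Fabp1-high cells, where 24.4% of all measured genes were. The list's median log2 ratio was -1.76. Nop56, a core protein of box C/D particles, averaged 0.0850 CP10K in Fabp1-high and 0.660 CP10K in Fabp1-low cells (log2 -2.82), and the box H/ACA proteins Gar1 and Dkc1 were at -2.62 and -2.58. Of 6 measured RNA polymerase I genes, 5 were lower (median -0.91). Of 24 measured translation factors and other products of TOP messages, 18 were lower (median -0.76), led by the histone chaperone Nap1l1 (-2.54) and the nucleolar protein Npm1 (-1.99), which the biogenesis list also holds. Of 22 other initiation factors, 13 were lower (median -0.87), with Eif1ax, which helps select the start codon, at -1.46.

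Fau, in the list of TOP messages, had a ratio nearer 0 than that list's median. Fau averaged 35.5 CP10K in Fabp1-high and 35.0 CP10K in Fabp1-low cells (log2 0.02; -0.03 in set 0 and 0.10 in set 1). It was singled out after its values had been seen. In the list of mTOR, S6 kinase, LARP1 and Myc genes, 3 of 9 measured were lower and 2 higher (median -0.33), where 24.4% and 10.8% of all measured genes were, so the counts lie near the background. Rps6kb1, a kinase of Rps6, was at -0.80, and the Myc antagonists Mxd1 and Mxi1 were at 0.97 and 0.83. Of 9 measured genes of ribosome quality control and modification, 3 were lower (median -0.24), again near the background, and 1 of these was the member Rpl11.

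In Mki67+Top2a-positive cells, 13 of 15 biogenesis genes were higher by 1.5-fold (median 1.23), where 20.2% of all measured genes were, with Nop56 and Gar1 both at 1.86. Among RNA polymerase I genes 5 of 6 were higher (median 0.61), and among the products of TOP messages 7 of 24 (median 0.36), not far above the background. Among the other initiation factors 8 of 22 were higher (median 0.49). The mTOR, S6 kinase, LARP1 and Myc list had 1 higher and 1 lower of 8 (median -0.22), and the quality control list 1 higher of 8 (median 0.16), counts near the background of 20.2% higher and 22.2% lower. Ribosomal protein genes thus moved in the direction of the biogenesis genes and by less.

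**Figure D5:**
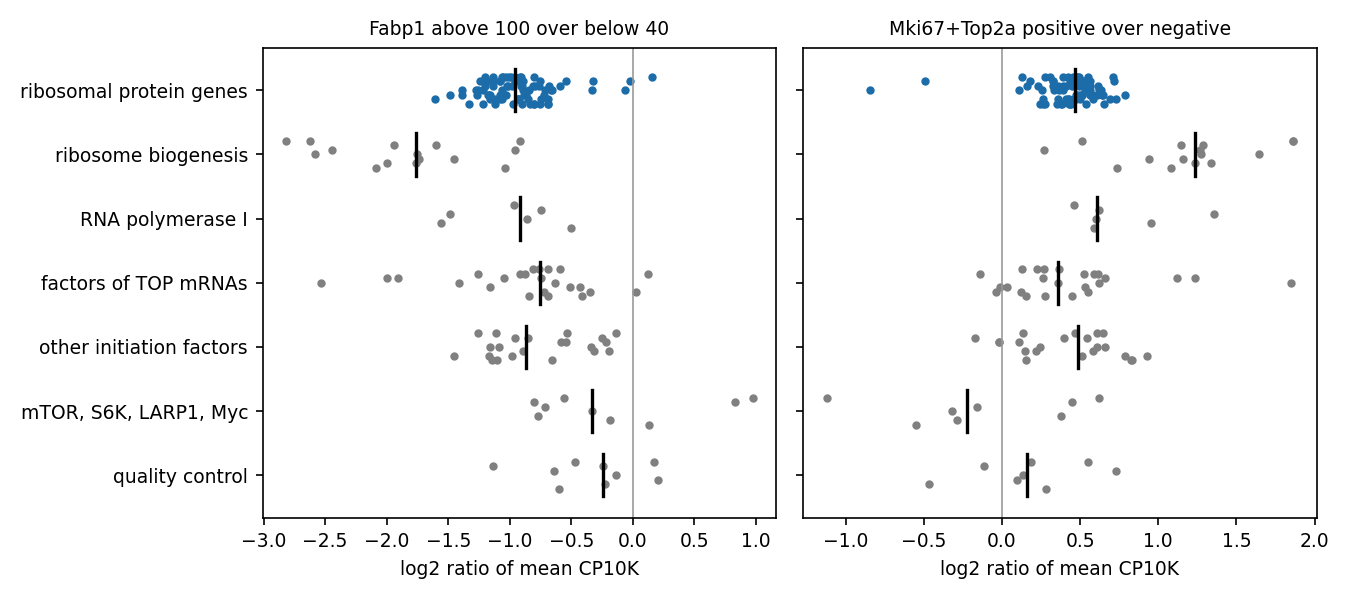
Log2 ratio of mean CP10K (x axis) for the measured ribosomal protein genes (blue) and the genes of 6 related lists (grey), by list (y axis), for Fabp1 above 100 over below 40 (left) and Mki67+Top2a positive over negative (right). Each dot is 1 gene and each black bar a median. The biogenesis medians are -1.76 and 1.23, and those of the ribosomal protein genes -0.96 and 0.47.

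Many members share sequence with processed pseudogenes, and the table shows where reads had to be divided. A value that rests on undivided reads is a whole multiple of 1 UMI in its cell. Of the 88 members, 42 had at least 95% of nonzero values whole within 0.01, 27 had 80% to 95% and 19 had less than 80%. Rpl21 had 33.4%, Rps12 49.2%, Rpl10 52.1%, Rpl12 56.6%, Rps2 57.5% and Rps6 68.6%, and their levels are uncertain to that extent. The share fell with the fraction of 31-base words near the transcript end that other genes also hold (Spearman -0.44 across 82 members). Columns named as pseudogenes of a member existed for 55 members, 182 columns in all. Adding them to their members moved no log2 ratio by more than 0.23 along Fabp1 or 0.17 by Mki67 and Top2a. Only columns with such names were added. The genes that share most words with Rpl12 and Rpl21, Gm10275 and Gm10240, carry other names. For such members the shift does not bound the effect of divided reads. Rps6 with its 4 pseudogene columns was at -1.41 in place of -1.61. The median log2 ratio along Fabp1 was -0.91 for the 40 measured members that were at least 95% whole and -1.08 for the 15 below 80%.

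A C at the start followed by 4 bases that are each C or T stood in 22.2% of the 63 members and in 3.01% of 27018 genes with a window. A run of 6 such bases from a C within 10 bases of the start stood in 55.6% of members and 21.9% of genes. In the window of 250 bases before to 50 after the start, CCGGAAG on either strand, letters that ETS factors bind, stood in 41.3% of members and 9.93% of genes. AAGATGG on either strand, from the motif of YY1, stood in 15.9% and 7.28%. Members with and without the start pattern, the run near the start or CCGGAAG had close medians along Fabp1, and those for AAGATGG lay further apart. The median was -0.96 for 13 measured members with the start pattern and -0.98 for 47 without. It was -0.96 for 33 with the run near the start and -0.98 for 27 without. Some members without the start pattern, such as Rpl12, have a run nearby. The start pattern thus depends on the annotated start, and its split cannot compare TOP messages with others. The median was -0.98 for 25 with CCGGAAG and -0.92 for 35 without. It was -0.86 for 10 with AAGATGG and -1.02 for 50 without. A match is a description of letters and not of binding.

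Longer coding sequences went with slightly more negative ratios along Fabp1. The third of protein-coding members with 588 to 1257 coding bases had a median of -1.08, the third with 405 to 582 bases -0.97 and the third with 138 to 399 bases -0.91 (Spearman -0.37 across 80 members).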

How the data were processed

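The authors deposited a single comma-separated table with 11871 cells and 25663 genes. The values as deposited by the authors are a signal on a linear scale that was divided by each cell's total and multiplied so that every cell adds up to 10000 (CP10K), as the values themselves show. Alevin in Salmon 0.14.1, Scanpy 1.6.0 and the names GRCm38 and mm10 for the genome come from the submitters' processing notes. Cell filters used before deposit are unknown here. Alevin can divide a UMI between similar genes, which gives values that are not whole UMIs.

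Every column was read as part of 1 pooled table, since neither barcode suffix is tied to a library. The value of 1 UMI in a cell was taken as its most frequent nonzero value, and a median of 94.9% of a cell's values were whole multiples of it. Groups were set by Fabp1 (below 40, above 100 CP10K), Fabp6 (at least 20, below 5), Mki67+Top2a (at least 1, 0) and Muc2+Fcgbp+Spink4 (at least 20, below 5), and the genes that set them are not reported as results. Means were compared as log2 ratios with a pseudocount of 0.01 and a minimum of 0.2 CP10K, in Python 3.11.15 with numpy 2.4.6, scipy 1.17.1 and pandas 2.3.3. The ratio was tested on simulated data with known folds. Cells with many UMIs were left out as an alternative, and no doublet caller was run.

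Named genes were those that left the members' median, the 5 highest and 5 lowest members of a comparison, paralogs, stalk proteins and the 3 leading genes of each related list. Others named for a known role, and those of lists of 5 or fewer, were added after values were seen. The members and lists were chosen with earlier results of these data known. Protein sequences of paralogs were planned and not used here. Values of some genes are not reported here, and sums, counts and medians include them.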

Additional observations from a re-analysis of the deposited data

Results flagged for a closer look

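Some values had opposite signs in the sets, and no difference between the sets was tested. For the summed ribosomal protein level of goblet-marker cells over cells with low goblet markers, the log2 ratio was -0.12 in set 0 and 0.15 in set 1, with 34 and 19 goblet-marker cells. In the same comparison Rpl3 was at -0.36 in set 0 and 0.19 in set 1, and Rpl7l1 at -0.31 and 0.19. Rpl22 was at -0.14 and 0.16, and Rpl39 at -0.18 and 0.26. For Fabp6-high over Fabp6-low cells above 100 CP10K of Fabp1, the pseudogene Rpl6l was at -0.28 in set 0 and 1.33 in set 1, with 103 Fabp6-high cells in set 1.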

How the results depend on the processing

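No paired analysis was possible because each genotype has 1 library and no test was run. The goblet-marker comparison rests on 58 cells, and depth limits low members such as Rpl6l; free RNA was not measured. Values below are log2 ratios of the summed ribosomal protein level, and counts of members past 1.5-fold. Sums moved beyond their counting interval in 39 of 47 alternatives, changed sign in 4 and stayed within it in 4; of 63 counts, 34 stayed within 1.5 times.

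For Fabp1 above 100 over below 40 (-0.93), the sum was -0.90 from UMIs, -1.09 with the total without mitochondrial, ribosomal protein and haemoglobin genes, -0.94 without shared barcodes, -1.02 in set 0, -0.86 in set 1, -0.92 with at least 5000 UMIs and at most 10% mitochondrial signal, -0.95 without the 5% deepest cells, -0.94 thinned and -1.03 for Fabp1 above 150 over below 20. The 76 members past 1.5-fold became 37 at 2-fold, where 11.4% of all genes were lower. That total moved the median of all genes to -0.32 in place of -0.17 here and to 0.13 in place of 0.01 for Mki67+Top2a, while the members' medians were -1.11 and 0.55.

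For Fabp6 (-0.25, 3 members), UMIs gave -0.26, that total -0.30 and 8, no shared barcodes -0.23 and 1, set 0 -0.11 and 0, set 1 -0.29, the stricter cell filter -0.29 and 9, no deepest cells -0.24, thinning -0.26, Fabp6 of at least 50 gave 5, all Fabp1 levels -0.45 and 30, and 2-fold 0. Rpl6l changed sign in set 0 (-0.28). Of all measured genes, 6.24% were lower and 7.05% higher with that total, and 5.57% and 7.69% without shared barcodes. Set 0 had 4.05% and 7.91%, the stricter filter 5.74% and 8.84%, and Fabp6 of at least 50 had 6.59% and 9.25%. All Fabp1 levels had 12.6% and 12.2%, and 2-fold had 1.63% and 2.29%.

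For Mki67+Top2a (0.45, 13 members), UMIs gave 0.47, that total 0.53 and 31, no shared barcodes 0.45, set 0 0.57 and 43, set 1 0.31 and 1, the stricter filter 0.41, thinning 0.40 and 6, a minimum of 2 CP10K 0.46, all Fabp1 levels 0.86 and 74, and 2-fold 0.

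For goblet markers (-0.031, 1 member), UMIs gave -0.0073 and 0, no shared barcodes -0.023 and 2, set 0 -0.12, set 1 0.15 and 2, the stricter filter 0.072 and 2, no deepest cells -0.024, thinning -0.046 and 0, at least 50 CP10K 0.0080 and 6, dividing cells kept in -0.064 and 2, and a minimum mean of 1 CP10K 0. The sign changed in set 1, with the stricter filter and at 50 CP10K. Of all measured genes, 30.9% were lower and 32.1% higher at 50 CP10K. UMIs had 8.01% and 13.8%, no shared barcodes 20.3% and 23.8%, and set 1 had 25.1% and 31.4%. The stricter filter had 18.9% and 21.7%, thinning 10.7% and 18.3%, and dividing cells kept in 14.9% and 20.1%. A minimum mean of 1 CP10K had 26.6% and 13.2%.

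The following were chosen after seeing the data. Cells below 5 CP10K of Fabp6 gave -1.02 for Fabp1, 0.30 and 1 for Mki67+Top2a, and -0.10 and 4 for goblet markers. Of all measured genes, 18.1% were lower and 15.6% higher for Mki67+Top2a there, and 24.0% and 26.5% for goblet markers. Fabp6 compared below 40 CP10K of Fabp1 gave -0.71 and 51, where 22.0% of all measured genes were lower and 20.6% higher. Members at least 95% whole gave -0.93 and 38 of 40 for Fabp1, 0 for Fabp6, 0.44 and 2 for Mki67+Top2a, and 0.0079, a changed sign, and 0 for goblet markers. For members at least 95% whole, the share over all measured genes is that of each main comparison. The causes of these shifts were not tested.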
